A study of Astyanax mexicanus with 20 samples.

Results

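Parvalbumin genes of fast skeletal muscle were followed in the Mexican tetra, Astyanax mexicanus, through injury and regrowth of muscle in its cave form and its surface form. The members were the rows of the deposited expression table named pvalb1, pvalb2, pvalb3 or pvalb4. Rows for 3 of these 4 names were found among 27420 gene rows: pvalb1 (ENSAMXG00000020716), pvalb2 (ENSAMXG00000033519) and pvalb4 (ENSAMXG00000020717), and 0 rows had the name pvalb3. All 3 passed the filter on low values and were tested.

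The 20 libraries of polyadenylated RNA from skeletal muscle fall into 8 groups. Troglobitic cavefish and river-dwelling surface fish each received a cardiotoxin injection and were sampled 1, 7 or 14 days post injury (dpi), or received a saline (PBS) injection as the control. Cardiotoxin, from cobra venom, destroys fibres and leaves their stem cells able to rebuild them. Groups at 1 dpi and controls had n = 3 libraries per form, and groups at 7 and 14 dpi had n = 2. The labels give the fish no age, size or strain name, give the controls no day after injection, and name free-running darkness for every library. The series' own design text instead describes collection over a 24-hour cycle with 3 fish at each point, which differs from the injury days and group sizes of the sample labels used here. Nothing ties each library to a fish of its own, so the p-values cover the spread between libraries, part of which may be technical. Stage cannot be told apart from any other difference in how the groups were collected.

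Parvalbumins are small EF-hand proteins that bind calcium ions in the cytosol. In fast fibres they take up calcium after each contraction and so speed relaxation, before the calcium pump returns the ions to the sarcoplasmic reticulum. Fish white muscle holds very large amounts of them, and bony fishes carry several parvalbumin genes whose products differ in abundance between larval and adult muscle. Regrowing fibres express developmental forms of many contractile proteins before the adult set returns.

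Levels are in TPM, a transcript abundance corrected for gene length, made by the authors and divided here by a scaling factor per library (scaled TPM). The factors ran from 0.593 to 1.92, and between 11150 and 15146 genes per library reached 1 TPM. Read totals are unknown, so no counting interval was computed. Log2 fold changes are differences of mean log2(scaled TPM + 1) with the standard error (SE) of the limma model fitted to 16884 genes, and a gene was called at a Benjamini-Hochberg adjusted p under 0.05. The fast sarcomere genes that define the tissue were abundant in every library, their summed level running from 39584 to 378492 scaled TPM. Markers of skin epithelium summed to 291 to 2612 scaled TPM in 19 of the libraries and to 10995 in cave 1 dpi replicate 3. RNA was taken from whole tissue, so fewer fibres and less RNA per fibre cannot be told apart.

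pvalb4 was the dominant parvalbumin, ranking first of all genes in every library, while pvalb2 and pvalb1 were minor transcripts in controls and reached the upper ranks after 7 days. As a share of all transcript, pvalb4 took between 3.77% and 15.3% of TPM. pvalb2 ranked between 121st and 1762.5th in control libraries but between 14th and 26th at 7 and 14 dpi. pvalb1 ranked between 244th and 7587th in control libraries and between 28th and 187th at 7 and 14 dpi. Group means of pvalb1 thus spanned 5.21 scaled TPM in cave 1 dpi muscle to 4035 scaled TPM in surface 14 dpi muscle. Those of pvalb2 spanned 59.5 to 12167 scaled TPM between the same groups. Those of pvalb4 spanned 60016 scaled TPM in surface 1 dpi muscle to 211699 scaled TPM in surface 14 dpi muscle.

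**Figure D1:**
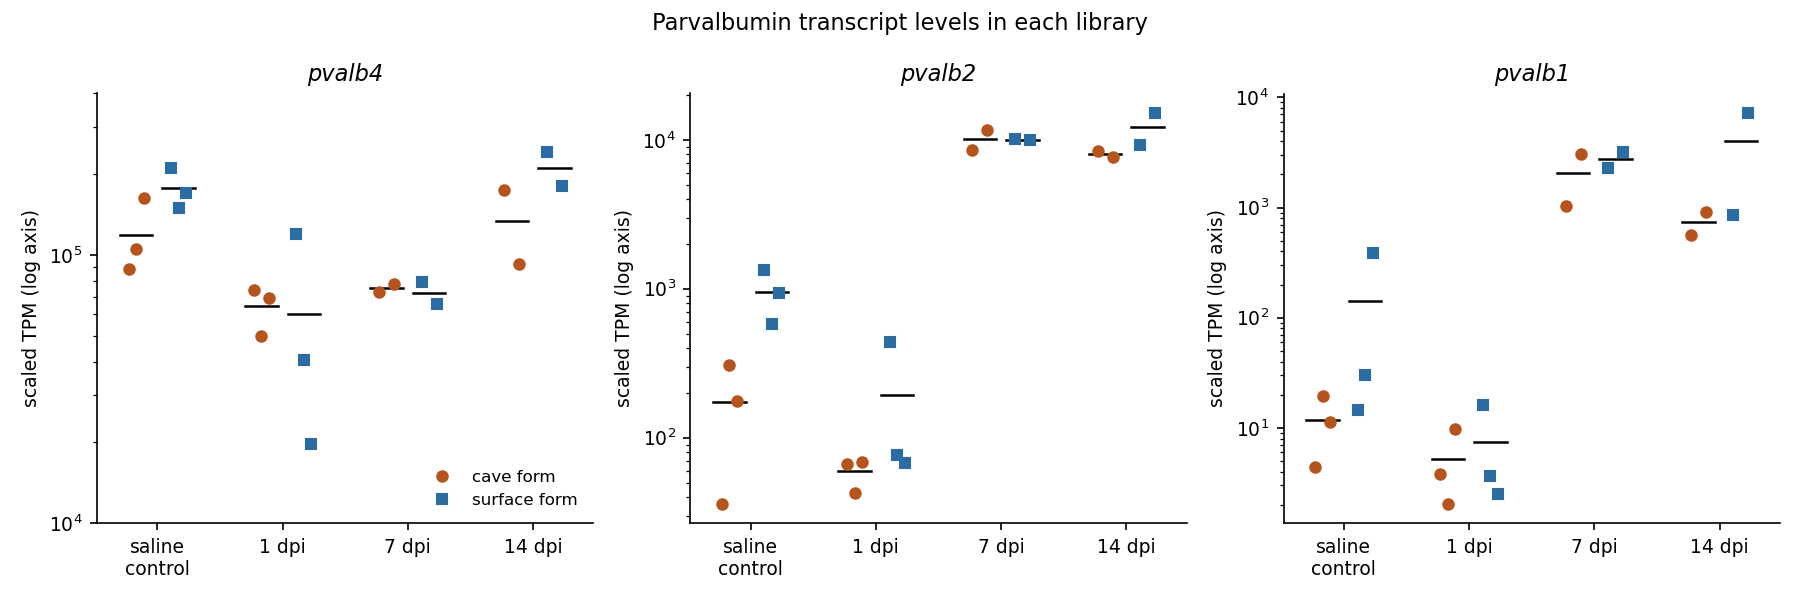
Scaled TPM (log axis) of pvalb4, pvalb2 and pvalb1 in every library, by stage, with the cave form as circles on the left and the surface form as squares on the right of each stage, and a bar at each group's mean. pvalb2 and pvalb1 sit higher at 7 and 14 dpi than in every control library, while pvalb4 is lowest in a surface 1 dpi library at 19673 scaled TPM.

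In the order of group means, pvalb1 and pvalb2 shared a gap: all 4 groups at 7 and 14 dpi lay above all 4 control and 1 dpi groups, and the libraries on both sides of that gap did not overlap. For pvalb1, the order upward was cave 1 dpi, surface 1 dpi, cave control and surface control, each overlapping the next, and then cave 14 dpi, cave 7 dpi, surface 7 dpi and surface 14 dpi. Of these upper groups only cave 14 dpi did not overlap the next. For pvalb2, the order was cave 1 dpi, cave control, surface 1 dpi, surface control, cave 14 dpi, surface 7 dpi, cave 7 dpi and surface 14 dpi. There surface control stood clear of its neighbours on both sides, and so did cave 14 dpi. pvalb4 had another order, with surface 1 dpi, cave 1 dpi, surface 7 dpi and cave 7 dpi below the remaining 4 groups. There cave 7 dpi did not overlap its upper neighbour, cave control, whereas surface 1 dpi replicate 1, at 119656 scaled TPM, lay within the cave control range.

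At 7 dpi pvalb2 and pvalb1 rose in both forms against saline controls, and pvalb4 was not called. In cave fish, where 5.37% of all genes tested were called higher, 2 of the 3 members were. pvalb2 stood at 8512 and 11627 scaled TPM in cave 7 dpi libraries, against 36.1, 307 and 175 scaled TPM in cave controls. Every injured library exceeded every control, and the model log2 fold change between the group means was 6.30 (SE 0.78, adjusted p = 0.000368, limma). pvalb1 stood at 1039 and 3046 scaled TPM in cave 7 dpi libraries, against 4.44, 19.6 and 11.3 scaled TPM in cave controls, again without overlap. Its log2 fold change of 7.32 (SE 1.17, adjusted p = 0.00228) ranked 1st by size among the 16884 genes, and that of pvalb2 ranked 6th. Genes whose cave 7 dpi libraries all lay above the controls made up 26.8% of those tested. The call of pvalb1 was lost without cave 7 dpi replicate 2 (log2 fold change 6.55, adjusted p = 0.0544), and the value without replicate 1 was 8.10. The pvalb2 value was 5.41 without cave control replicate 1 and 6.94 without replicate 2, both called.

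In surface fish at 7 dpi, 2 of the 3 members were called higher, against 3.11% of all genes. pvalb2 stood at 10062 and 9966 scaled TPM in surface 7 dpi libraries, against 1329, 580 and 939 scaled TPM in surface controls (log2 fold change 3.48, SE 0.78, adjusted p = 0.0236). pvalb1 stood at 2274 and 3218 scaled TPM in surface 7 dpi libraries, against 14.6, 30.3 and 385 scaled TPM in surface controls (log2 fold change 5.56, SE 1.17, adjusted p = 0.0184). The groups did not overlap for either gene, which held in this direction for 19.2% of genes. Surface control replicate 3 stood apart from the other surface controls in pvalb1, at 385 scaled TPM, and without it the fold change was 6.94 (adjusted p = 0.00402). These calls rested on few libraries. That of pvalb1 had adjusted p = 0.0522 without surface control replicate 1 (log2 fold change 4.62), 0.14 without surface 7 dpi replicate 1 and 0.0697 without replicate 2. That of pvalb2 had adjusted p = 0.0609 and 0.0504 without surface control replicates 2 and 3, and 0.185 and 0.0759 without surface 7 dpi replicates 1 and 2. Fitted on the groups of this contrast alone, pvalb1 had adjusted p = 0.204 and pvalb2 0.0751.

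pvalb4, by contrast, stood at 72987 and 78134 scaled TPM in cave 7 dpi libraries, against 88904, 104829 and 163657 scaled TPM in cave controls (log2 fold change -0.61, 95% interval -1.84 to 0.62, adjusted p = 0.57). In surface 7 dpi libraries it stood at 79176 and 65704 scaled TPM, against 211597, 149909 and 170082 scaled TPM in surface controls (-1.28, interval -2.51 to -0.05, adjusted p = 0.226). Both forms had every 7 dpi library below every control, as did 20.3% of genes in cave fish and 15% in surface fish. Macrophage markers were higher in the same libraries: their 10 rows summed to 641 to 703 scaled TPM in cave 7 dpi muscle, against 174 to 307 in cave controls, and to 530.5 to 998 in surface 7 dpi muscle, against 223 to 288 in surface controls. 7 of the 10 rose in cave fish and 4 in surface fish, where 5.37% and 3.11% of all genes rose. 0 of the 10 were at 0 in any library, and their part in the parvalbumin values was not tested. Fast sarcomere genes summed to 194824 to 204688 scaled TPM in cave 7 dpi libraries, within the 170678 to 248208 of cave controls, and to 180999 to 184703 in surface 7 dpi libraries, below the 239668 to 359564 of surface controls.

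**Figure D2:**
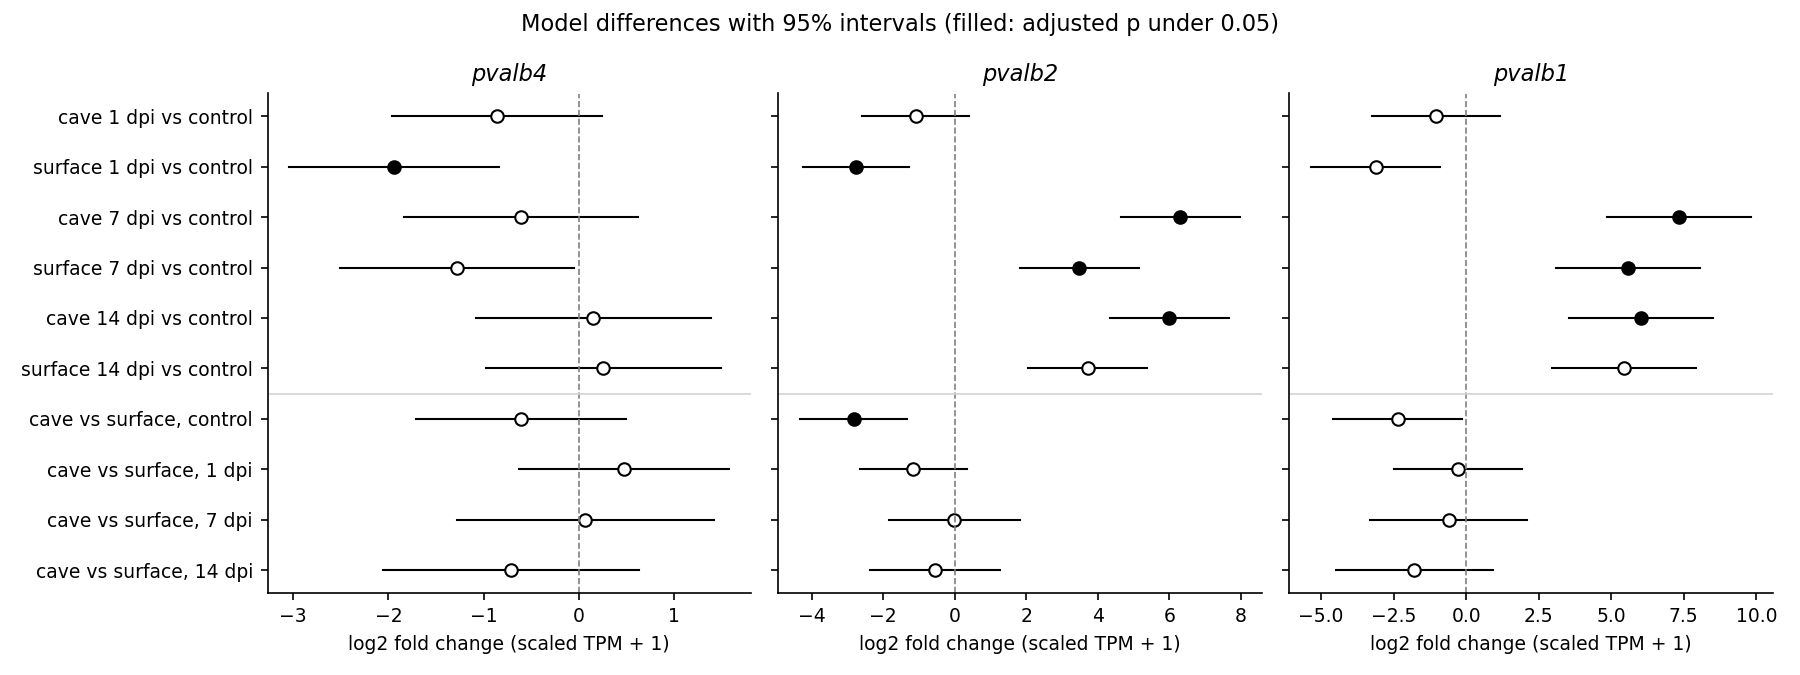
Log2 fold changes of pvalb4, pvalb2 and pvalb1 from the limma model, with 95% intervals, for each injured stage against the saline control of its form (upper rows) and for cave against surface fish at each stage (lower rows). Filled points passed adjusted p under 0.05, as in the cave 7 dpi rows of pvalb2 (6.30) and pvalb1 (7.32).

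At 14 dpi the higher pvalb2 and pvalb1 levels were still present, and pvalb4 overlapped the controls in both forms. In cave fish 2 of the 3 members were called higher, against 6.22% of all genes. pvalb2 stood at 8448 and 7649 scaled TPM in cave 14 dpi libraries, against 36.1 to 307 scaled TPM in cave controls (log2 fold change 5.99, SE 0.78, adjusted p = 0.00176). pvalb1 stood at 566 and 917 scaled TPM in cave 14 dpi libraries, against 4.44 to 19.6 scaled TPM in cave controls (6.02, SE 1.17, adjusted p = 0.00862). The libraries did not overlap, which held in this direction for 25.4% of genes, and the fold changes of pvalb1 and pvalb2 ranked 2nd and 3rd among all genes. pvalb4 stood at 175426 and 92811 scaled TPM in cave 14 dpi libraries, which overlapped the controls (0.15, interval -1.08 to 1.38, adjusted p = 0.898). Fitted on these groups alone, adjusted p was 0.0809 for pvalb2 and 0.0802 for pvalb1. The pvalb2 value was 5.11 without cave control replicate 1 and 6.64 without replicate 2, both called. The macrophage markers summed to 545 to 721 scaled TPM in cave 14 dpi muscle, where 8 of 10 rose. In surface 14 dpi muscle they summed to 242 to 636 scaled TPM, against 223 to 288 in surface controls. There limma called 0 genes of any kind, so the count of 0 rising markers cannot be compared with that of cave fish. The part of these cells in the parvalbumin values was again not tested.

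In surface fish at 14 dpi limma called 0 genes, which is 0% of those tested, while 1593 genes had an unadjusted p under 0.05. The parvalbumin values were high there all the same. pvalb2 stood at 9218 and 15117 scaled TPM in surface 14 dpi libraries, against 580 to 1329 scaled TPM in surface controls (log2 fold change 3.72, SE 0.78, interval 2.05 to 5.38, adjusted p = 0.126). pvalb1 stood at 853 and 7218 scaled TPM in surface 14 dpi libraries, against 14.6 to 385 scaled TPM in surface controls (5.44, SE 1.17, interval 2.96 to 7.92, adjusted p = 0.128). Both 14 dpi libraries lay above all controls for both genes, as they did for 9.28% of genes, and these fold changes ranked 3rd and 1st by size. pvalb1 passed without surface control replicate 3 (6.82, adjusted p = 0.0198) and without surface 14 dpi replicate 1 (6.98, adjusted p = 0.0492), and its value was 3.90 without surface 14 dpi replicate 2. The libraries of this group differed in pvalb1 by a factor of 9.43 in TPM as deposited, the widest spread within a group of 2 libraries. pvalb4 stood at 242865 and 180532 scaled TPM in surface 14 dpi libraries, which overlapped the controls (0.26, interval -0.97 to 1.49, adjusted p = 0.943).

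One day after injury pvalb4 and pvalb2 fell in surface fish, which makes 2 of the 3 members called lower, against 6.41% of all genes. pvalb4 stood at 119656, 40720 and 19673 scaled TPM in surface 1 dpi libraries, against 211597, 149909 and 170082 scaled TPM in surface controls (log2 fold change -1.94, SE 0.52, adjusted p = 0.0203). The injured libraries lay below all controls, as they did for 13.5% of genes, and spread over a 3.06-fold range in TPM as deposited. pvalb2 stood at 437, 76.3 and 67.5 scaled TPM in surface 1 dpi libraries, against 1329, 580 and 939 scaled TPM in surface controls (-2.76, SE 0.70, adjusted p = 0.0156). pvalb1 stood at 16.3, 3.65 and 2.52 scaled TPM in surface 1 dpi libraries, against 14.6, 30.3 and 385 scaled TPM in surface controls. Those groups overlapped, and the difference did not pass (-3.12, SE 1.04, adjusted p = 0.0561). Without surface control replicate 3, the highest control, the pvalb1 value was -1.75 (adjusted p = 0.228). It passed in 4 of the 20 fits that left out a library: surface control replicate 1 (-4.07, adjusted p = 0.0272), surface 1 dpi replicate 1 (-3.82, adjusted p = 0.0436) and each surface 14 dpi library (adjusted p = 0.0414 and 0.0417). With a mean of at least 5 TPM required its adjusted p was 0.0406. With a replicate block it was 0.0482 by number and 0.0712 within form, while pvalb4 and pvalb2 passed under both blocks. Immune cell markers rose in the same libraries. Neutrophil markers summed to 108 to 149 scaled TPM in surface 1 dpi muscle, against 19.0 to 19.6 in surface controls, with 7 of 12 rows rising and 0 at 0 in the injured libraries. Macrophage markers summed to 532 to 721 scaled TPM, against 223 to 288 in surface controls, with 4 of 10 rising where 8.35% of all genes did. Their part in the parvalbumin falls was not tested.

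The size of the surface 1 dpi falls depended on the scaling between libraries. For pvalb4 the log2 fold change was -1.94 with scaled TPM, -1.15 with TPM as deposited, -1.27 with TPM re-summed without the parvalbumins and -0.72 when scaled to fast sarcomere genes, called each time. Quantile normalization sets the top gene of every library to the same value, so pvalb4 was at 0 by construction. For pvalb2 the same settings gave -2.76, -1.98, -2.10 and -1.56, each called. For pvalb1 they gave -3.12, -2.46, -2.57 and -2.08, none called. As deposited, the median of all genes at this stage was 0.57, against 0.02 after scaling. Fast sarcomere genes fell in the same libraries, summing to 179582, 87609 and 39584 scaled TPM, in the same order of libraries as pvalb4. Of their 25 rows 15 fell and 0 rose, where 6.41% of all genes fell and 8.35% rose. Their median log2 fold change was -1.02, against 0.02 for all genes. The pvalb4 call had adjusted p = 0.0686 and 0.0513 without surface control replicates 1 and 3, and 0.0665 and 0.0669 without surface 1 dpi replicates 2 and 3. Its value was -2.63 without replicate 1 and -1.33 without replicate 3. It had adjusted p = 0.34 with no filter on low values and 0.378 when only these groups were fitted. The pvalb2 call had adjusted p = 0.0613 without surface control replicate 1, and 0.0689 and 0.0697 without surface 1 dpi replicates 2 and 3, with a value of -3.62 without replicate 1. It had adjusted p = 0.0893 when only these groups were fitted.

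In cave fish at 1 dpi 0 of the 3 members passed, where limma called 24.8% of genes and 6149 genes had an unadjusted p under 0.05. pvalb4 stood at 74004, 49898 and 69107 scaled TPM in cave 1 dpi libraries, against 88904, 104829 and 163657 scaled TPM in cave controls (log2 fold change -0.86, interval -1.96 to 0.24, adjusted p = 0.251). pvalb2 stood at 66.8, 42.6 and 69.2 scaled TPM in cave 1 dpi libraries, against 36.1, 307 and 175 scaled TPM in cave controls (-1.09, interval -2.58 to 0.39, adjusted p = 0.283). pvalb1 stood at 3.83, 2.05 and 9.76 scaled TPM in cave 1 dpi libraries, against 4.44, 19.6 and 11.3 scaled TPM in cave controls (-1.04, interval -3.26 to 1.18, adjusted p = 0.512). The groups overlapped for pvalb2 and pvalb1, while every injured library lay below every control for pvalb4, as for 19.4% of genes. pvalb2 passed without cave control replicate 1, the lowest control (-1.98, adjusted p = 0.0385), and was at -0.45 (adjusted p = 0.7) without replicate 2, the highest. Scaled to fast sarcomere genes, the values were 0.08 for pvalb4, -0.17 for pvalb2 and -0.26 for pvalb1. In these libraries 11 of 12 neutrophil rows and 10 of 10 macrophage rows rose, where 15.7% of all genes did. Neutrophil markers summed to 143 to 338 scaled TPM in cave 1 dpi muscle, against 18.8 to 32.2 in cave controls, and macrophage markers to 960 to 1322, against 174 to 307, and their part in these values was not tested.

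Between 1 and 7 dpi pvalb1 and pvalb2 rose steeply in both forms, with larger fold changes than against the controls. In cave fish, where 4.28% of genes were called higher, pvalb1 rose by 8.36 (SE 1.17, adjusted p = 0.000441) and pvalb2 by 7.39 (SE 0.78, adjusted p = 5.84e-05) on the log2 scale. In surface fish, where 2.2% were called higher, pvalb1 rose by 8.69 (SE 1.17, adjusted p = 0.00107) and pvalb2 by 6.24 (SE 0.78, adjusted p = 0.000689). The pvalb1 change ranked 1st among all genes and the pvalb2 change 4th in each form. pvalb4 had log2 fold changes of 0.25 in cave fish (interval -0.98 to 1.48) and 0.66 in surface fish (interval -0.57 to 1.89) and was not called. Scaled to fast sarcomere genes, the rises were 7.72 for pvalb1 and 6.63 for pvalb2 in cave fish and 8.04 and 5.46 in surface fish. The pvalb1 value in cave fish was 9.14 and 7.59 without cave 7 dpi replicates 1 and 2. Without surface 1 dpi replicate 1 the surface values were 9.38 for pvalb1 and 7.10 for pvalb2. The pvalb2 rise in surface fish had adjusted p = 0.0751 when only these groups were fitted.

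From 7 to 14 dpi no member passed in either form, with 0.0474% of genes called in cave fish and 1.96% in surface fish. In cave fish, 898 genes had an unadjusted p under 0.05 at this step. The pvalb1 difference was -1.30 in cave fish (interval -4.02 to 1.41) and -0.12 in surface fish (interval -2.84 to 2.59). Leaving out a library moved it between -2.08 and -0.53 in cave fish and between -1.67 and 1.42 in surface fish, where the values are those without surface 14 dpi replicates 2 and 1. That of pvalb2 was -0.31 in cave fish (interval -2.13 to 1.52) and 0.24 in surface fish (interval -1.59 to 2.06), where it was -0.49 with TPM as deposited, -0.54 with quantile normalization, -0.57 scaled to fast sarcomere genes and -0.40 re-summed without the parvalbumins. For pvalb4 it was 0.76 in cave fish (interval -0.59 to 2.10) and 1.54 in surface fish (interval 0.19 to 2.89, adjusted p = 0.232). In surface fish both 14 dpi libraries lay above both 7 dpi libraries for pvalb4, as for 18.3% of genes. In cave fish this held for pvalb4 too, while for pvalb1 and pvalb2 both 14 dpi libraries lay below both 7 dpi libraries. The share of all genes without overlap at this step in cave fish is not given here, so nothing is read from it.

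Saline-injected controls of the cave and surface forms differed in pvalb2. Cave controls held 36.1, 307 and 175 scaled TPM of pvalb2, and surface controls held 1329, 580 and 939 scaled TPM. The highest cave control lay below the lowest surface control, as for 12.5% of genes, with a log2 difference of -2.83 (SE 0.70, adjusted p = 0.0183). 1 of the 3 members was thus called lower in cave fish, against 4.16% of genes. pvalb1 was at 11.8 ± 7.57 scaled TPM in cave controls and 143 ± 209 scaled TPM in surface controls (SD, n = 3 each), with overlap (-2.36, SE 1.04, adjusted p = 0.194). Its difference was -0.99 without surface control replicate 3 and -3.31 without replicate 1, and was not called either time. pvalb4 was at 119130 ± 39375 scaled TPM in cave controls and 177196 ± 31453 scaled TPM in surface controls (-0.61, interval -1.71 to 0.49, adjusted p = 0.561). The pvalb2 call had adjusted p = 0.0911 without cave control replicate 1 (-1.95), 0.0693 without surface control replicate 1, and 0.129 when only the controls were fitted. Without cave control replicate 2 the difference was -3.47.

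After injury the cave and surface forms had no called difference in any member. For pvalb2 the log2 difference of cave from surface fish was -1.16 at 1 dpi (interval -2.65 to 0.33), -0.01 at 7 dpi (interval -1.83 to 1.81) and -0.55 at 14 dpi (interval -2.38 to 1.27). Those of pvalb1 were -0.28 (interval -2.50 to 1.94), -0.60 (interval -3.32 to 2.11) and -1.78 (interval -4.50 to 0.93), and those of pvalb4 were 0.47 (interval -0.63 to 1.57), 0.07 (interval -1.28 to 1.41) and -0.71 (interval -2.06 to 0.63). The shares of genes called at these stages were 11.6%, 4.56% and 12.2%. At 14 dpi both cave libraries lay below both surface libraries for pvalb2 and for pvalb4, as for 22.7% of genes. The pvalb1 difference at 14 dpi ran from -3.33 to -0.24, and that at 7 dpi from -1.38 to 0.17, when a library was left out. At 7 dpi pvalb2 stood at 10069 ± 2203 scaled TPM in cave fish and 10014 ± 68.0 scaled TPM in surface fish (SD, n = 2 each). The average over the 4 stages takes in the saline controls, whose pvalb2 difference of -2.83 was the largest of the 4. In that average pvalb2 was lower in cave fish by a log2 difference of -1.14 (SE 0.39, adjusted p = 0.036), where 14.1% of genes were called lower. That call was lost in 10 of the 20 fits that left out a library, with values of -1.30 to -0.92 and adjusted p up to 0.0771. The libraries concerned were surface control replicates 1 and 3, cave 1 dpi replicate 2, surface 7 dpi replicates 1 and 2, cave 7 dpi replicates 1 and 2, surface 14 dpi replicate 2, and cave 14 dpi replicates 1 and 2. pvalb1 (-1.26, adjusted p = 0.111) and pvalb4 (-0.20, adjusted p = 0.64) did not pass in that average.

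Whether the forms responded differently to injury was tested as an interaction, which passed for no member. For pvalb2 the cave log2 fold change minus the surface log2 fold change was 1.67 at 1 dpi (SE 0.99, adjusted p = 0.642), where the values were -1.09 in cave fish and -2.76 in surface fish. It was 2.82 at 7 dpi (SE 1.11, interval 0.47 to 5.17, adjusted p = 0.919). At 14 dpi it was 2.28 (SE 1.11, interval -0.08 to 4.63, adjusted p = 0.333). For pvalb1 the differences were 2.09, 1.76 and 0.58, and for pvalb4 they were 1.08, 0.67 and -0.11, with adjusted p between 0.69 and 1. Leaving out a library moved those of pvalb2 over 0.78 to 2.54, 1.93 to 3.46 and 1.39 to 2.92 at the 3 stages, and those of pvalb1 over 0.71 to 3.03, 0.38 to 2.701 and -0.95 to 2.13. Those of pvalb4 ran over 0.48 to 1.78, 0.49 to 0.93 and -0.57 to 0.35, and none passed in any of these fits. Few genes were called in these contrasts, 0.113%, 0.0474% and 0.0296% of those tested at 1, 7 and 14 dpi. At an unadjusted p under 0.05 there were 1636, 808 and 2648 genes.

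The makeup of the summed TPM of the 3 members, a measure within each library that no scaling factor touches, shifted toward pvalb2 and pvalb1 at 7 dpi. In cave fish pvalb2 made up 10.3% and 12.5% of the summed TPM of the 3 members at 7 dpi and 4.58% and 7.55% at 14 dpi, against 0.0406%, 0.292% and 0.107% in controls. In surface fish its share was 11.0% and 12.6% at 7 dpi and 3.64% and 7.45% at 14 dpi, against 0.624%, 0.385% and 0.548% in controls. Every 7 dpi library thus had a higher pvalb2 share than every 14 dpi library of its form. The share depends on pvalb4 as well: in surface fish pvalb2 averaged 12167 scaled TPM at 14 dpi and 10014 scaled TPM at 7 dpi, while pvalb4 averaged 211699 scaled TPM at 14 dpi and 72440 scaled TPM at 7 dpi. pvalb1 made up 1.26% and 3.28% in cave 7 dpi libraries and 2.49% and 4.08% in surface 7 dpi libraries, and at most 0.224% in a control. At 14 dpi its share was 0.307% and 0.905% in cave fish and 0.337% and 3.56% in surface fish. pvalb4 made up 99.2% to 99.95% of the summed TPM of the 3 members in controls and 1 dpi libraries, and 83.3% to 88.4% at 7 dpi. Other parvalbumin rows, such as pvalb6, are outside this sum.

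**Figure D3:**
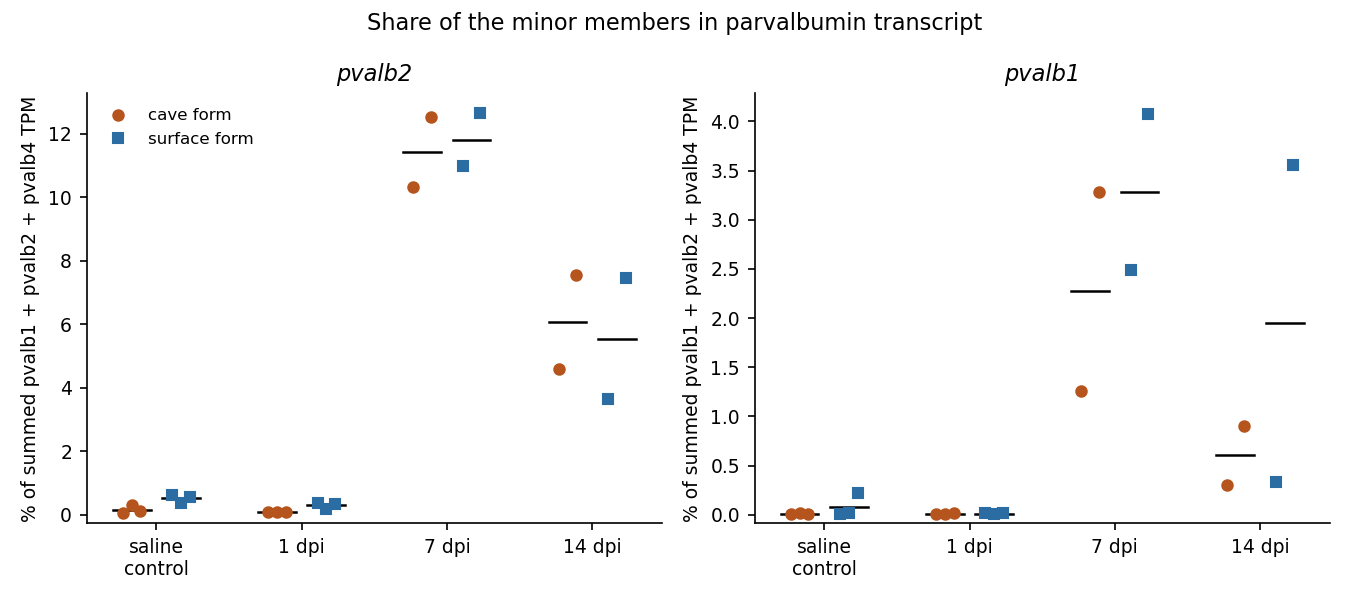
Percent of the summed pvalb1, pvalb2 and pvalb4 TPM contributed by pvalb2 and by pvalb1 in every library, by stage, with the cave form as circles, the surface form as squares and bars at group means. Shares of pvalb2 reach 12.6% at 7 dpi and stay at or below 0.624% in controls.

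Reads of closely related genes can be split wrongly between copies. The lowest pvalb1 value was 3.36 TPM, in cave 1 dpi replicate 2, a library with 81705 TPM of pvalb4, so that pvalb1 was 0.00411% of pvalb4 there. In the 7 dpi libraries it was 1.42% to 4.90% of pvalb4. Relative to pvalb2, pvalb1 ran from 1.096% in surface control replicate 1 to 47.7% in surface 14 dpi replicate 2, and how much of pvalb1 came from misplaced reads was not tested. In RefSeq's annotation of the AstMex3_surface assembly, pvalb5, LOC103031037, pvalb4 and pvalb8 follow one another on a chromosome, and the span of LOC103031037 covers that of pvalb4. The authors' annotation is not named, and the row identifiers (ENSAMXG) are not RefSeq's. Whether that overlap was in the gene models counted, and how its reads were counted, is therefore unknown. RefSeq's annotation held 0 entries named pvalb1 and 0 named pvalb2, so those names rest on the deposited row names alone.

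Set against the mean log2(TPM + 1) of the 25 fast sarcomere rows of the same library, pvalb2 and pvalb1 again stood higher at 7 and 14 dpi than in controls. Relative to that mean pvalb2 lay at 2.77 and 3.16 log2 units in cave 7 dpi libraries, against -4.88, -1.74 and -2.69 log2 units in cave controls. The difference of group means was 6.07 in cave fish and 3.33 in surface fish at 7 dpi, and 5.61 and 3.28 at 14 dpi. For pvalb1 it was 7.09 in cave fish and 5.40 in surface fish at 7 dpi, and 5.64 and 4.98 at 14 dpi. pvalb4 lay lower against the sarcomere genes at 7 dpi, by -0.84 in cave fish and -1.43 in surface fish. At 14 dpi its difference from controls was -0.23 in cave fish and -0.18 in surface fish. At 1 dpi it was 0.03 in cave fish and -0.80 in surface fish. These differences are a description with no test.

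**Figure D4:**
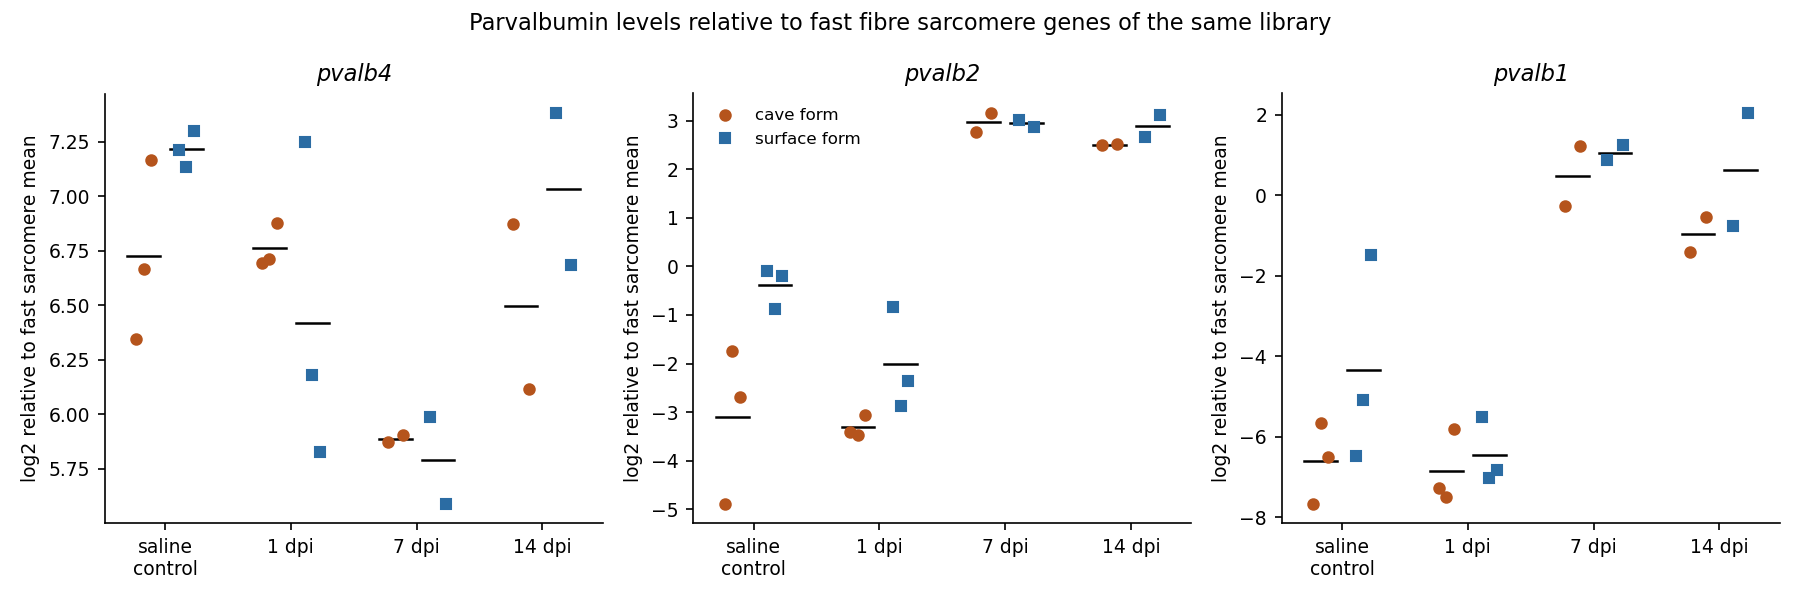
Log2(TPM + 1) of pvalb4, pvalb2 and pvalb1 minus the mean log2(TPM + 1) of 25 fast sarcomere rows in the same library, by stage, with the cave form as circles, the surface form as squares and bars at group means. pvalb2 lies above 2 log2 units in all libraries at 7 and 14 dpi, and pvalb4 has its lowest group means at 7 dpi.

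The table held 5 other parvalbumin rows, of which 4 passed the filter. Of these 4, 0 were called higher at 7 or 14 dpi in either form. Of all genes, 5.37% were called higher in cave fish and 3.11% in surface fish at 7 dpi. At 14 dpi the shares were 6.22% in cave fish and 0% in surface fish, where limma called 0 genes. With shares this low, nothing is read from that count. pvalb6, the most abundant of these rows, stood at 455 ± 44.0 scaled TPM in cave 7 dpi muscle (SD, n = 2), against 2086 ± 534 scaled TPM in cave controls (n = 3). That was a fall of 2.16 on the log2 scale (SE 0.50, adjusted p = 0.0188). It also fell in cave fish by 1.64 at 1 dpi (SE 0.45, adjusted p = 0.0145) and by 1.90 at 14 dpi (SE 0.50, adjusted p = 0.0289). In surface fish pvalb6 stood at 422 ± 36.8 scaled TPM at 7 dpi, against 1633 ± 1153 scaled TPM in controls (-1.72, SE 0.50, adjusted p = 0.0629). In TPM as deposited, pvalb2 was 20.1 to 25.4 times pvalb6 at 7 dpi and 0.0139 to 0.808 times pvalb6 in controls. pvalb7, which marks Purkinje neurons of the cerebellum in zebrafish, was at 82.2 ± 30.8 scaled TPM in cave 1 dpi muscle and 189 ± 80.2 scaled TPM in cave controls (n = 3 each), a fall of 1.19 (SE 0.40, adjusted p = 0.0389). pvalb7 was not called at the other cave stages or at any surface stage. In cave fish it stood at 72.5 and 102 scaled TPM at 7 dpi and at 149 and 133 at 14 dpi. The cave controls held 278, 166 and 123. In surface fish it stood at 219, 173 and 87.0 scaled TPM at 1 dpi, against 329, 254 and 248 in controls. It stood there at 112 and 141 at 7 dpi, and at 60.8 and 137 at 14 dpi. pvalb8 and pvalb9 averaged 2.82 and 0.349 TPM over all libraries and were not called against controls, and pvalb5 was below the filter.

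**Figure D5:**
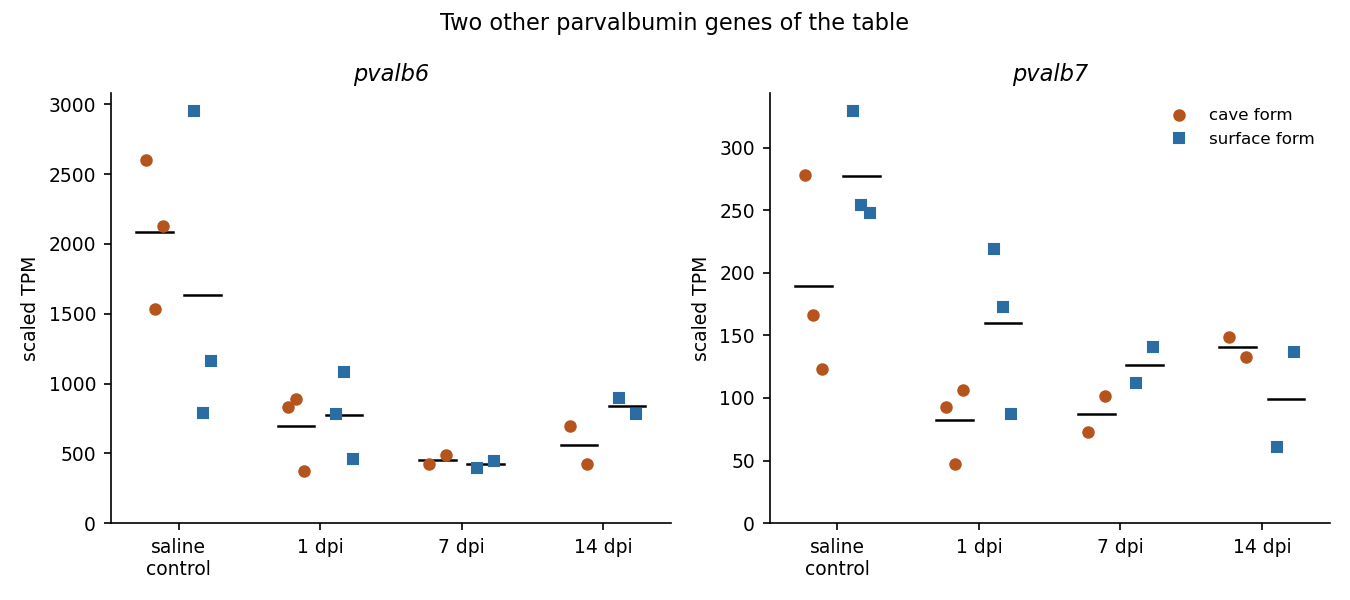
Scaled TPM of pvalb6 and pvalb7 in every library, by stage, with the cave form as circles, the surface form as squares and bars at group means. All 4 libraries at 7 dpi hold less pvalb6 than any control, the surface 7 dpi mean being 422 scaled TPM.

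Genes of the other steps of calcium handling in fibres (pump, release channel, triad proteins) were not called higher at 7 dpi. Of 20 rows kept, 0 rose at 7 dpi in either form, where 5.37% of all genes rose in cave fish and 3.11% in surface fish. In cave fish 0 fell and in surface fish 2, where 2.02% and 1.49% of all genes fell. The medians were -0.14 and -0.27, against 0.03 for all genes in both. At 14 dpi 0 moved in either form, where limma called 6.22% of all genes higher in cave fish and 0 genes in surface fish. With shares this low, nothing is read from these counts at 7 and 14 dpi. At 1 dpi 12 fell and 1 rose in cave fish (median -0.92) and 11 fell and 1 rose in surface fish (median -0.76), where 9.07% and 6.41% of all genes fell. The most abundant was atp2a1l, a fast calcium pump gene, at 9385 ± 1719 scaled TPM in cave 1 dpi muscle and 18342 ± 699.5 scaled TPM in cave controls (n = 3 each; log2 fold change -0.98, SE 0.23, adjusted p = 0.00646). In cave 7 dpi muscle it was at 11373 ± 142 scaled TPM (n = 2; -0.69, SE 0.26, adjusted p = 0.119). tmem38a, a potassium channel gene of the sarcoplasmic reticulum, fell at 1 dpi by 1.06 in cave fish (adjusted p = 0.0306) and by 1.58 in surface fish (adjusted p = 0.00576). calm2a, a calmodulin gene, was not called at any stage.

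Fast sarcomere genes fell at 1 dpi, 10 of 25 rows in cave fish and 15 in surface fish with 0 rising. Of all genes, 9.07% fell in cave fish and 6.41% in surface fish at that stage. At 7 dpi 5.37% of all genes rose and 2.02% fell in cave fish, and 3.11% rose and 1.49% fell in surface fish. Of the fast sarcomere rows 2 rose and 1 fell in cave fish (median -0.08), and 2 rose and 0 fell in surface fish (median -0.40). The list held mylpfa but not the row MYLPF, a fast regulatory light chain gene whose values are given below. mylpfa, a fast regulatory light chain gene, changed at surface 1 dpi by -2.03 (SE 0.51, adjusted p = 0.0147) and mylz3, a fast essential light chain gene, by -2.15 (SE 0.55, adjusted p = 0.0158). At 7 dpi neither was called in either form. Of 18 slow sarcomere rows, 1 fell and 0 rose in cave fish at 7 dpi, and 0 moved in surface fish. Among 27 regulators of fast fibre genes, 1 rose and 2 fell in cave fish and 1 rose and 0 fell in surface fish at 7 dpi, with medians of -0.35 and -0.32. Against those shares of all genes, nothing is read from these counts of 0 to 2.

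The genes most like each member over the 20 libraries were found by the Pearson correlation of log2(scaled TPM + 1) among 4403 named genes averaging at least 10 TPM. These correlations share the libraries and their scaling and carry no test. pvalb1 and pvalb2 were each other's closest match (r = 0.95, 20 libraries), while pvalb4 had r = 0.44 with pvalb2 and 0.36 with pvalb1. Next for pvalb1 came the ribosomal protein gene rplp0 (0.90), bhmt of methionine synthesis (0.89), dedd1 (0.89) and the arginyltransferase gene ATE1 (0.89). For pvalb2 they were ATE1 (0.92), bhmt (0.92), the fast regulatory light chain gene MYLPF (0.92) and the ribosomal protein gene rpl5a (0.91). MYLPF, a separate row from mylpfa, stood at 22681 ± 7904 scaled TPM in cave 7 dpi muscle (n = 2), against 3171 ± 2579 scaled TPM in cave controls (n = 3). bhmt stood at 247 ± 24.8 scaled TPM in cave 7 dpi muscle, against 43.3 ± 23.5 scaled TPM in cave controls. pvalb4 was most like the fast light chain gene mylpfa (0.96), the actin capping gene capza1b (0.96), si:dkey-51e6.1 (0.95), the M-band gene myom1b (0.95) and rbm14a (0.94). myom1b stood at 318 ± 30.1 scaled TPM in cave 7 dpi muscle, against 492 ± 50.4 scaled TPM in cave controls.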

How the data were processed

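Per the submitters' processing notes, the tools were STAR 2.7.3a and RSEM 1.3.0. The build and annotation were not given in the sources used here. The authors deposited 1 table of gene values in TPM, which keep no read depth. RSEM divides reads shared by similar genes by estimation. Low values of one parvalbumin can therefore depend on how reads of an abundant one were placed, which was not tested.

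A gene was kept if 2 or more libraries held 1 TPM of it (16884 genes). Scaling factors were medians of ratios computed on the 9467 genes that reached 1 TPM throughout. limma 3.58.1 (R 4.3.3) fitted a mean for each of the 8 groups to log2(scaled TPM + 1), leaving 12 residual degrees of freedom, with a mean-variance trend and Benjamini-Hochberg adjustment over all genes in each of 18 contrasts. The fit was also run on simulated data with independent noise of equal spread in all groups. Spread differed between groups here, so no support is drawn from that run. A fold change on this scale understates that of low genes. Groups came from the labels.

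Alternatives were other pseudocounts, filters and scalings, a robust variance model, fits of the compared groups only, replicate blocks, and leaving out each library. The members and lists were chosen with earlier results of these data known. Genes were named by rule: the members, the 5 closest by correlation, and the 3 most abundant of the parvalbumin, calcium, fast and slow lists and the most abundant marker of each cell type; some of these are given only by their list. Of the other cell type lists, counts that rose and fell at 7 dpi in cave and surface fish were 4 and 0, and 2 and 0, of 12 neutrophil rows, 0 and 0 in both of 16 skin and 6 erythrocyte rows, 0 and 2, and 0 and 1, of 11 endothelial rows, 1 and 0 in both of 13 fibroblast rows, and 0 and 3, and 0 and 6, of 11 Schwann cell rows. Of all genes, 5.37% rose and 2.02% fell in cave fish at 7 dpi, and 3.11% rose and 1.49% fell in surface fish. Nothing is read from marker counts of 0 or 1.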

Additional observations from a re-analysis of the deposited data

How the results depend on the processing

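Of the 54 pairs of member and contrast, the call did not change in any under a pseudocount of 0.1, a robust variance model, TPM without scaling, scaling to fast sarcomere genes or re-summing without the parvalbumins. With only the compared groups fitted, calls were lost for pvalb1 in cave fish at 14 dpi (log2 fold change 6.02) and surface fish at 7 dpi (5.56), and for pvalb2 in cave fish at 14 dpi (5.99), between controls (-2.83), in surface fish at 1 dpi (-2.76) and 7 dpi (3.48) and from 1 to 7 dpi in surface fish (6.24). The same fit lost pvalb4 in surface fish at 1 dpi (-1.94), as did no filter (-1.94) and quantile normalization (0). For pvalb2 averaged over stages the call was lost with no filter (-1.14) and quantile normalization (-0.96). With a mean of at least 5 TPM required, pvalb1 in surface fish at 1 dpi was called (-3.12). Leaving out each library changed the call in some fits of pvalb1 in cave fish at 7 dpi (6.55 to 8.10), in surface fish at 1 dpi (-4.07 to -1.75), 7 dpi (4.62 to 6.94) and 14 dpi (3.90 to 6.98) and averaged over stages (-1.65 to -0.87). It did so for pvalb2 in cave fish at 1 dpi (-1.98 to -0.45), between controls (-3.47 to -1.95), averaged over stages (-1.30 to -0.92), and in surface fish at 1 dpi (-3.62 to -2.29) and 7 dpi (3.16 to 3.76), and for pvalb4 in surface fish at 1 dpi (-2.63 to -1.33). Quantile normalization fixes the pvalb4 value at 0 by construction. The causes of the other changes were not tested. Fits that left libraries out also held fewer of them.

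Library numbers recur across groups, but no label says what a shared number means. Among 26 pairs with the same number and form in different groups, correlations of deviations from group means ran from -0.26 to 0.26. Within a form, 11 of 20 libraries correlated best with one of their own number, and 26 of 74 pairs share one. In a group of 2 libraries the deviations mirror each other, so the pairs are not independent. The 26 of 74 is therefore not an expected rate for best matches. Between surface control and surface 1 dpi all 3 same-number pairs exceeded 0.1 (0.14, 0.11 and 0.23), while between cave control and cave 1 dpi the pairs were at 0.08, -0.20 and -0.26. Within a form, 10 of 26 pairs with the same number exceeded 0.1. So did 11 of 48 pairs with different numbers, the highest at 0.36. Whether the numbers pair libraries is thus not settled. With a replicate block within form, which cannot give form differences, pvalb2 in surface fish at 7 dpi lost its call (3.26). With a replicate block by number, pvalb2 averaged over stages lost its call (-1.14) and pvalb1 in surface fish at 1 dpi gained one (-3.12). The blocks within form and by number left 993 and 992 genes called in cave fish at 7 dpi and 594 and 571 in surface fish.

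Counts of all genes called also moved, and each contrast is given as its reported count, then the lowest and the highest over all settings. In cave fish against controls they were 4191, 2683 and 7224 at 1 dpi, 1247, 156 and 1523 at 7 dpi, and 1703, 0 and 1948 at 14 dpi. In surface fish they were 2492, 1098 and 9918 at 1 dpi, 776, 13 and 1062 at 7 dpi, and 0, 0 and 54 at 14 dpi. For cave against surface fish they were 1475, 592 and 1548 in controls, 1960, 1031 and 2166 at 1 dpi, 770, 215 and 879 at 7 dpi, 2053, 24 and 2397 at 14 dpi, and 5496, 2989 and 5951 on average. For the difference of responses they were 19, 1 and 38 at 1 dpi, 8, 1 and 29 at 7 dpi, and 5, 0 and 318 at 14 dpi. From 1 to 7 dpi they were 1618, 448 and 3566 in cave fish and 741, 69 and 2466 in surface fish, and from 7 to 14 dpi 8, 0 and 186 in cave fish and 331, 0 and 1329 in surface fish.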

Other observations

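pvalb8, which marks hair cells of the lateral line in zebrafish, was at or below 0.57 TPM in 16 of the 20 muscle libraries. It stood at 30.4 TPM in cave 1 dpi replicate 3, whose skin epithelium markers summed to 10995 scaled TPM, the highest of the 20 libraries. Cave control replicate 2 followed with 14.8 TPM and a skin sum of 2612 scaled TPM, and surface 1 dpi replicate 2 with 4.75 TPM and a skin sum of 2562 scaled TPM. Cave 1 dpi replicate 2 held 3.76 TPM with a skin sum of 1148 scaled TPM, whereas surface 1 dpi replicates 3 and 1, with higher skin sums of 1285 and 1164 scaled TPM, held 0 TPM. In the cave control and cave 1 dpi groups, the library highest in skin markers also held the most pvalb2. Cave 1 dpi replicate 3 held 69.2 scaled TPM, against 66.8 and 42.6 in the others, and cave control replicate 2 held 307, against 36.1 and 175. In the surface control and surface 1 dpi groups this was not so. Surface control replicate 2, with the highest skin sum of its group (951 scaled TPM), held the least pvalb2, 580 against 1329 and 939 scaled TPM. Surface 1 dpi replicate 2 held 76.3 scaled TPM of pvalb2, against 437 and 67.5. The part of skin tissue in these values was not tested.

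Surface control replicate 3 held 385 scaled TPM of pvalb1, against 14.6 and 30.3 in the other surface controls, while its pvalb2 (939 scaled TPM) and pvalb4 (170082 scaled TPM) lay between theirs. The cause of the high value was not tested.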
